A study of Rattus norvegicus with 24 samples.

Results

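Solute carriers are the membrane proteins that move ions, sugars, amino acids, nucleosides, metals, drugs and metabolites across the cell surface and the membranes of organelles. Their genes were followed here in 6 rat tissues across adult life. The members were all genes whose array symbol began with Slc and a digit, or with Slco, other than Slc25a1, Slc2a1, Slc2a2, Slc34a1, Slc40a1, Slc11a2, Slc4a1, Slc1a2 and Slc1a3. They came to 283 probe sets of 231 genes, of the 15923 probe sets and 10412 singly named genes on the array, and 17 probe sets of 9 genes were set aside by that rule. Slc4a1ap and Slc7a6os carry the name of a binding partner or of a gene on the opposite strand and are not carriers themselves, but the rule keeps them.

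Male Sprague Dawley rats of 4, 10, 18 and 24 months gave kidney, liver, hypothalamus, bone, pituitary and spleen lymphocyte, and the RNA of each tissue and age was hybridised to 1 Affymetrix rat 230A array. Per the study's methods the RNA of 10 rats was pooled for each array, and 1 set of 10 rats supplied every tissue at a given age. No group therefore had a replicate: a comparison of tissues used the 4 ages of a tissue as its 4 arrays, a comparison of ages used the 6 tissues, and a 2-fold difference between 2 single arrays had no error at all. P-values measure only the spread between these pooled arrays. All were bulk RNA, of lymphocytes prepared from spleen and of 5 tissues or organs, so fewer cells of a type and less RNA per cell could not be told apart.

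The values are MAS5.0 signals, an intensity per probe set scaled by the authors to a target of 500. A signal under 100 was raised to 100 before taking log2, since order is lost among the dimmest probe sets. Of the 231 members, 226 reached 100 on at least 1 array and entered the tissue comparison, 182 (78.8%, against 81.2% of all genes) did so on at least 12 arrays, and 93 (40.3%, against 52.1% of all genes) on all 24. The 5 that never did were Slc16a8, Slc18a3, Slc26a2, Slc26a3 and Slc6a5. Array medians lay between 213 and 309. The tissues carried their defining markers: the 10 hepatocyte genes summed to 266922 to 298126 in liver, and the 9 measured kidney epithelium genes to 55507 to 58984 in kidney. Of the arrays, 4 were picked, with earlier results known, for what they read on single measures and were left out in alternatives. In bone at 18 months the 5th percentile of signal was 33.5, against 9.13 to 15.7 on the other 23 arrays. In hypothalamus at 10 months the Actb 3′ to 5′ ratio was 3.09 on the log2 scale, against 1.1 to 1.89 at the other ages, and Alb, the liver's albumin gene, read 9580. Kidney at 18 months had one of the lowest medians, 213.7. In bone at 4 months the 6 measured osteoblast genes summed to 75747, against 29596 to 47786 later. Other arrays were as far out on some of these measures: spleen lymphocyte at 4 months had the highest Actb and Gapdh ratios, 3.74 and 2.40 on the log2 scale, and liver at 10 months the lowest median, 213.2. Leaving out these 2 as well was chosen after seeing the data.

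In textbook terms, transporters of the plasma membrane divide the work of an organ between the side facing blood and the side facing lumen, bile or synapse. Kidney tubule cells take amino acids, glucose, phosphate and organic acids back from the filtrate and secrete drugs into it. Hepatocytes clear bile acids and organic anions from portal blood, and neurons use transporters to load vesicles and to set the chloride gradient. Mitochondrial carriers of family 25 exchange metabolites with the cytosol in nearly every cell.

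The first question was which tissue held each transporter. Each tissue was set against the mean of the other 5, and a gene was called where the difference was at least 1 on the log2 scale with an adjusted p under 0.05 (limma, all 10063 genes that reached 100, Benjamini-Hochberg). Values raised to the floor have no spread. Where many of the other 20 arrays sit there, the size, SE and p of a difference are set in part by the floor. Slc7a9, Slco1b2, Slc32a1 and Abcb11 below are examples. In kidney 63 of the 226 members were called higher (27.9%, against 10.5% of all genes) and 16 lower (7.08%, against 8.7% of all genes). In liver 42 were higher (18.6%, against 9.96%) and 28 lower (12.4%, against 14.7%). In hypothalamus 34 were higher (15%, against 11.8%) and 37 lower (16.4%, against 10.8%). In bone 18 were higher (7.96%, against 10.5%) and 36 lower (15.9%, against 8.66%). In pituitary 13 were higher (5.75%, against 9.83%) and 34 lower (15%, against 7.22%). In spleen lymphocyte 12 were higher (5.31%, against 12.1%) and 55 lower (24.3%, against 14.2%). Of the 226, 90 were called higher in 1 tissue, 40 in 2 tissues, 4 in 3 and 92 in none. The like counts were not made over all genes.

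**Figure D1:**
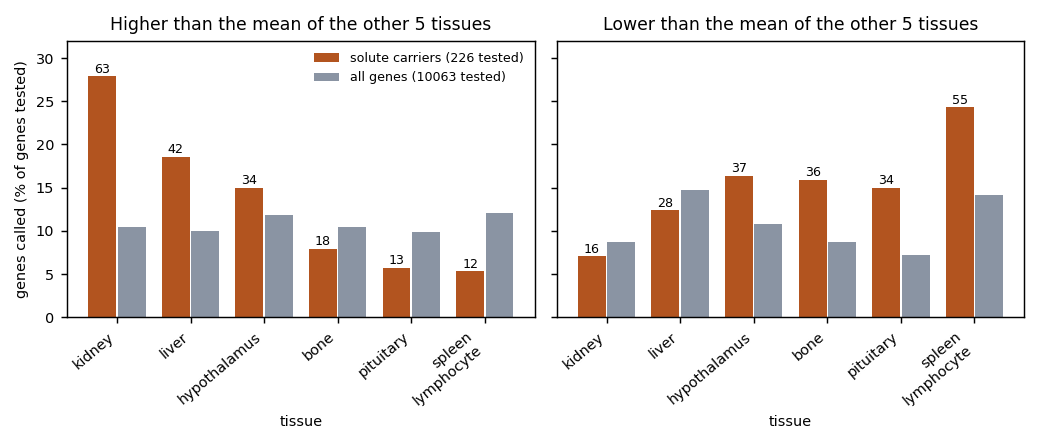
Percent of genes called higher (left) or lower (right) in each tissue than in the mean of the other 5 tissues, for the 226 solute carriers tested and for all 10063 genes tested, with the number of members above each bar. The share of members called higher was 27.9% in kidney and 5.31% in spleen lymphocyte, while that of all genes lay between 9.83% and 12.1%.

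The median difference over the members was 0.09 in kidney (-0.12 over all genes), -0.11 in liver (-0.20), -0.19 in hypothalamus (-0.11), -0.18 in bone (-0.02), -0.15 in pituitary (0.03) and -0.41 in spleen lymphocyte (-0.06), all on the log2 scale. All 4 kidney arrays lay above the other 20 arrays for 41 members (18.1%, against 5.5% of all genes). The same held for 22 members in liver (9.73%, against 5.85%), 18 in hypothalamus (7.96%, against 5.81%), 5 in bone (2.21%, against 4.29%), 3 in pituitary (1.33%, against 3.94%) and 7 in spleen lymphocyte (3.1%, against 7.46%).

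**Figure D2:**
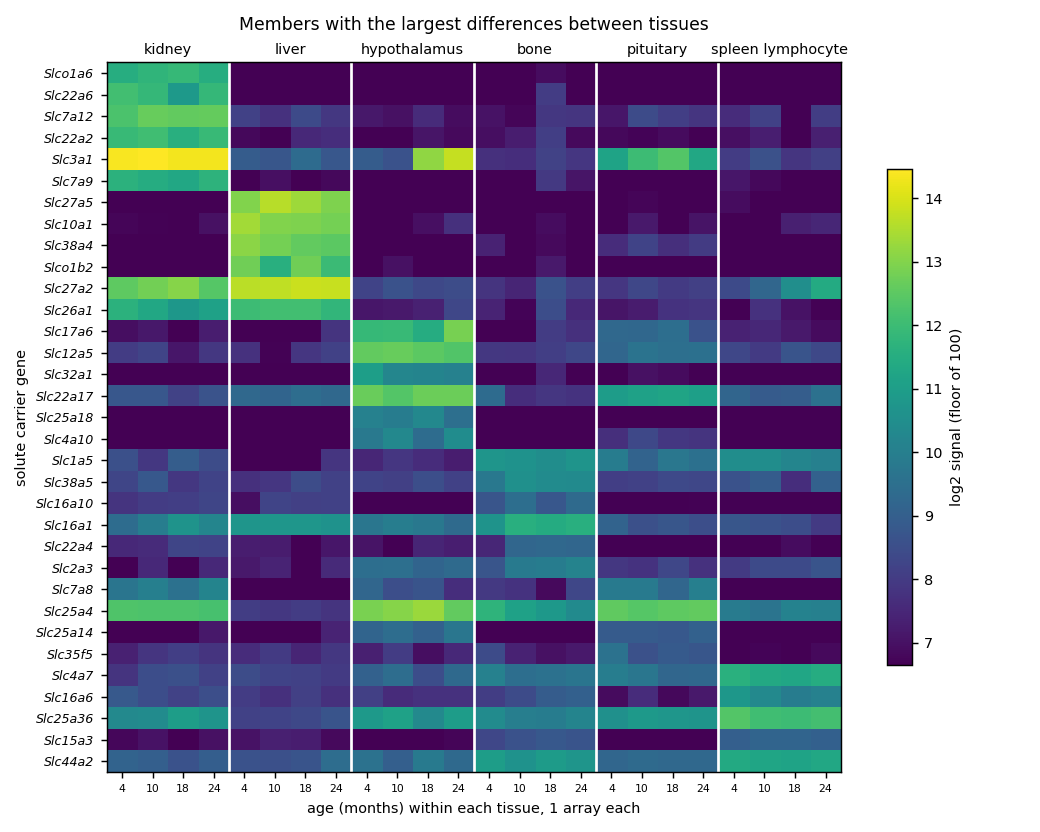
Log2 signal (floor of 100) on the 24 arrays for the up to 6 members with the largest called difference in each tissue, genes in rows and arrays in columns by tissue and age in months. Kidney, liver and hypothalamus genes form blocks. For some genes the other tissues sit at the floor, while Slc12a5, Slc22a17, Slc27a2 and Slc26a1 lie above it in other tissues too. Slc3a1 changes colour in hypothalamus between 10 and 18 months.

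Amino acid transporters were led by kidney, where 9 of the 30 tested were higher and 3 lower. Of all genes 10.5% were higher in kidney and 8.7% lower. The counts of small classes here and below are to be read beside these shares and those given above for the other tissues. Slc3a1 (chr6:15361037-15396695 in build GRCr8) encodes the heavy subunit, and Slc7a9 (chr1:97246253-97269546) the light subunit, of the apical exchanger that recovers cystine and dibasic amino acids. Slc3a1 read 21474, 22573, 20690 and 20694 in kidney at 4, 10, 18 and 24 months, against 205 to 13948 (median 429) in the other tissues. No array of another tissue reached the kidney level, although late hypothalamus came closest. The difference was 4.82 ± 0.57 (SE; adjusted p = 8.86e-07, limma). Slc7a9 read 3230, 2855, 2575 and 3342 in kidney, against 13.6 to 248 (median 82.7) elsewhere, a difference of 4.75 ± 0.16 (SE). No array outside kidney exceeded 248.2 for the light chain, while the heavy chain read 2306 to 5303 in pituitary and more in late hypothalamus.

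Slc7a12, another amino acid transporter of family 7, read 4894, 6454, 6077 and 6326 in kidney, against 95.7 to 346 (median 224) in the rest. Slc7a7, the light subunit that releases dibasic amino acids on the blood side, ran from 1898 to 3178 in kidney, against 80.7 to 473 (median 254). Slc1a1, a glutamate transporter of neurons and of the proximal tubule, was called in both kidney (2521, 2412, 2030 and 2115) and hypothalamus (1048, 851, 936 and 814). The hypothalamus arrays all lay below the kidney ones. Slc6a18, which carries neutral amino acids, read 2375, 2382, 1624 and 1990 in kidney and stayed under 100 on all 20 other arrays, at least 20.7-fold higher in kidney.

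Elsewhere the amino acid carriers were other genes. In liver, where 2 were higher and 7 lower of 30, Slc38a4 (chr7:130022039-130082169), a carrier of small neutral amino acids, read 8883, 7329, 6130 and 5756, against 2.5 to 296 (median 48.0) in the other tissues. Slc38a3, a glutamine transporter, ran from 1173 to 2207 in liver, against 23.1 to 915 (median 88.5). In bone, where 4 were higher and 5 lower, the glutamine carriers Slc1a5 (1693, 1591, 1428 and 1647) and Slc38a5 (879, 1513, 1360 and 1329) lay above all 20 other arrays. The difference for Slc1a5 was 2.06 ± 0.20 (SE). The next tissue for Slc1a5 was spleen lymphocyte, with 1416, 1412, 1185 and 1062, also called (1.66 ± 0.20).

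Spleen lymphocyte had 4 higher and 6 lower of the 30. Slc7a6, a light subunit for dibasic amino acids, ran from 624 to 837 there, against 19.5 to 550.0 (median 249). Slc38a2, the amino acid carrier that cells raise when starved, read 3586, 1955, 1639 and 1273, with the 4-month array the highest. Slc38a1 read 604, 654, 553 and 585, but a different probe set of it was highest in hypothalamus, so its leading tissue was not settled. Slc3a2, the common heavy chain, was at 918.9 or more on every array and called higher in kidney (3188, 2391, 2710 and 3227; 1.08 ± 0.15, SE), although 1 bone array lay inside the kidney range.

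Start regions are shown for 5 members called higher in kidney whose first listed RefSeq promoter holds TTAATNATT, and for Slc3a1, whose signal changed most. That stretch is not itself a palindrome. The transcription factor HNF1 of liver and kidney epithelium binds a longer palindrome around TTAATNATT in textbook accounts. Both strands of the 300 bases from 250 before to 50 after each start were searched (RefSeq, build GRCr8; 1 promoter per gene; 196 of the 231 members matched). The full HNF1 palindrome was in 0 of the 196 and in 1 of 27457 promoters of all genes. The inner stretch TTAATNATT, chosen after seeing the data, was in 6 of the 196 (3.06%, against 1.47% of all 27457). Those 6 were Slc7a9, Slc7a12, Slc7a8, Slc17a3 and Slc44a4, which are among the 58 members called higher in kidney that have a promoter (8.62%), and Slc10a2, which was called higher in no tissue. Among the 36 called higher in liver it was in 1 (2.78%), and in 0 of the 27 called higher in hypothalamus. Capitals mark the match, and in Slc17a3 the matches on the 2 strands overlap.
Slc7a9: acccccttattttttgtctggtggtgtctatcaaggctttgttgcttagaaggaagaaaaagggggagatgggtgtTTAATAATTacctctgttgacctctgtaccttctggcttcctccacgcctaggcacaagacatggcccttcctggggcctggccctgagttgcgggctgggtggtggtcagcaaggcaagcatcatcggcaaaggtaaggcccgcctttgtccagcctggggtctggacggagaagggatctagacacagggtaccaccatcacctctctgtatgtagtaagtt
Slc7a12: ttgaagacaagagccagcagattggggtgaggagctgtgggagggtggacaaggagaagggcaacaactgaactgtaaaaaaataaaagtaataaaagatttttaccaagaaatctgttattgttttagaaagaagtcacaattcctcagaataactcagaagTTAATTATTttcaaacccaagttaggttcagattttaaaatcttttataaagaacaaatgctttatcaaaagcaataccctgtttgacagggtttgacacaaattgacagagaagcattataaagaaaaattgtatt
Slc7a8: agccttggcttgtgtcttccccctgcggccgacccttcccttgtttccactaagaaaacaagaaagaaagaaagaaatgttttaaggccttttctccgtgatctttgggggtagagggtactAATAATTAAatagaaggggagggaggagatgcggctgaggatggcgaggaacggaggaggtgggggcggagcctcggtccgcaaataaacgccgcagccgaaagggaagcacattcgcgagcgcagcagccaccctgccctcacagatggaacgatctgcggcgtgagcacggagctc
Slc17a3: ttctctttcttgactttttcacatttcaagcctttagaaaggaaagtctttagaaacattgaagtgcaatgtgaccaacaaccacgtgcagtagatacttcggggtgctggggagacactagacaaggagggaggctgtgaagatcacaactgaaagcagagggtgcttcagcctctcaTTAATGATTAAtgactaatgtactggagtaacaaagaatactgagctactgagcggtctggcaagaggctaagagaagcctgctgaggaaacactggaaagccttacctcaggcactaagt
Slc44a4: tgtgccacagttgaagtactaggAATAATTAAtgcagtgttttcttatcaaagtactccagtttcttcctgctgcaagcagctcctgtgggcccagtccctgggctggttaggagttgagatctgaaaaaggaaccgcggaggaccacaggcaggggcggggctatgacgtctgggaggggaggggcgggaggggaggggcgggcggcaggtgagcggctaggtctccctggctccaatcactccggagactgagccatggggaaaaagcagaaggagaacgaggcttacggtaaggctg
Slc3a1: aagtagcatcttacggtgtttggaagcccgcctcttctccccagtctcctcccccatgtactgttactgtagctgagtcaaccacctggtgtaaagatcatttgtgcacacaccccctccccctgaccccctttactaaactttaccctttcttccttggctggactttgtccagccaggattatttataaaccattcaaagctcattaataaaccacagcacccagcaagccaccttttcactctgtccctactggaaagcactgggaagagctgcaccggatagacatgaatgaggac
These lie at chr1:97246632-97246931 (+ strand), chr2:88868054-88868353 (- strand), chr15:32212666-32212965 (- strand), chr17:41723060-41723359 (- strand), chr20:3923805-3924104 (- strand) and chr6:15394700-15394999 (- strand). Counted from the start, the match begins at -174 in Slc7a9, -87 in Slc7a12, -128 in Slc7a8, -71 and -69 in Slc17a3 and -227 in Slc44a4, and the Slc3a1 window holds none. The windows of Slc7a9 and Slc3a1 lie inside the gene spans given above. Their starts are therefore not the outermost annotated ones, and the bases before those were not searched. A match describes letters only and no binding was measured.

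The organic anion, organic cation and bile acid transporters take up bile salts, hormones and drugs. They were split between the 2 clearing organs: 12 of 29 were higher and 4 lower in kidney (median difference 0.67), and 9 were higher and 2 lower in liver (median -0.01). In spleen lymphocyte 0 were higher and 10 lower, and in pituitary 1 was higher and 10 lower. Slc22a6, the organic anion exchanger that takes drugs from blood into the proximal tubule, read 4341, 3669, 1845 and 3675 in kidney, against 10.6 to 263 (median 38.5) elsewhere. Its difference of 4.94 is set by the floor, to which all hypothalamus, pituitary, spleen lymphocyte and liver values were raised. Its 18-month kidney array was the lowest of the 4. Slc22a2, the renal organic cation transporter, read 3857, 4277, 3085 and 3878, against 16.8 to 275 (median 117) (4.86 ± 0.19, SE). Slc22a8 read 5610, 4341, 2893 and 4975 in kidney and was again lowest at 18 months. The next tissue for it was liver, with 1008, 1235, 1082 and 1036. Slc22a24 stayed under 100 on all 20 other arrays and ran from 1542 to 1862 in kidney, at least 16.7-fold higher there.

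In liver the leading member of the class was Slc10a1 (chr6:106344319-106357944), the sodium-dependent carrier of conjugated bile salts into hepatocytes. It read 10680, 8086, 7901 and 7306 in liver, against 34.2 to 212 (median 102) in the other tissues, a difference of 6.16 ± 0.16 (SE; adjusted p = 1.54e-16, limma). Slco1b2 (chr4:176282577-176355557), an organic anion carrier of the same cells, read 7044, 3033, 6948 and 4007 in liver and 3.8 to 144 (median 52.9) elsewhere (5.58 ± 0.15). Slc22a7 read 1447, 1466, 1372 and 1559 in liver, the narrowest range of the 3, against 85.7 to 522 (median 152).

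Close relatives on chromosome 4 had different tissues. Slco1a6 read 2922, 3477, 3738 and 2946 in kidney and 4.2 to 119.8 (median 21.9) elsewhere, and Slco1a3 read 2108, 2647, 3208 and 1788 in kidney and 9.5 to 138 (median 73.5) elsewhere. Slco1a4 read 9198, 9625, 5664 and 6841 in liver, with hypothalamus next at 1224, 1488, 1009 and 1318. Slco1a1 was high in both, with 2472, 1975, 2606 and 1447 in kidney and 1418, 1989, 1716 and 1532 in liver, and these 2 sets of arrays overlapped. These genes are closely similar in sequence, and whether a probe set also reads a relative was not tested.

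**Figure D3:**
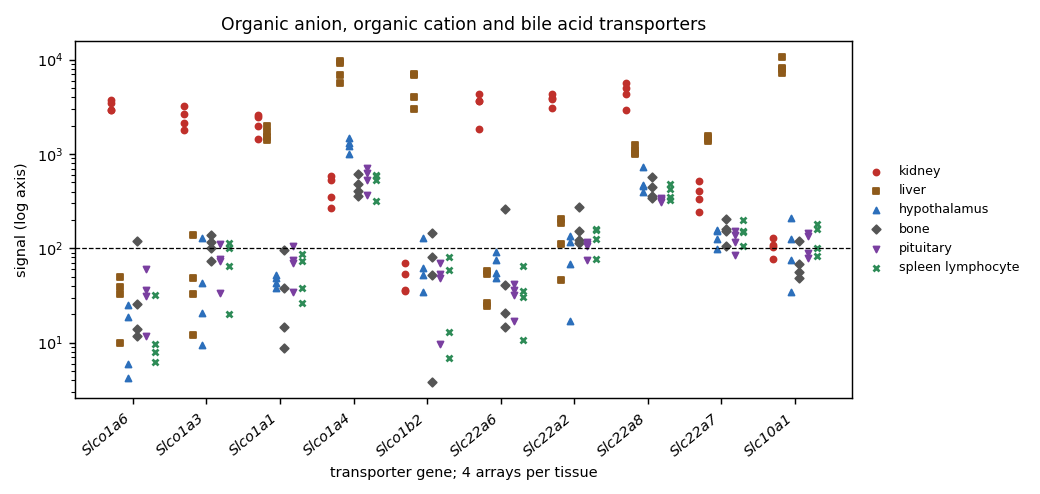
Signal (log axis) of 10 organic ion and bile salt carriers on the 4 arrays of each tissue, with the floor of 100 dashed. Slco1a6, Slco1a3, Slc22a6 and Slc22a2 have only kidney arrays over 1000, Slco1b2, Slc10a1 and Slc22a7 only liver arrays, and Slco1a1 both.

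Carriers of phosphate, sulfate and Krebs cycle acids were the class with the largest share in kidney: 7 of 10 were higher, 0 lower, with a median difference of 2.48. In liver 6 were higher and 1 lower, and in bone 0 were higher and 7 lower. Slc13a3, which recovers dicarboxylates and citrate, read 4859, 3951, 3471 and 4000 in kidney, against 14.3 to 531 (median 153). Slc13a1, the sodium-sulfate carrier of the proximal tubule, read 1491, 1540, 2698 and 2376, against 9.7 to 128 (median 25.2). Slc17a3, a carrier of organic anions and urate, was alike in kidney (1166, 1258, 1869 and 1223) and liver (1080, 1369, 1327 and 1475), and the arrays of the 2 tissues overlapped. Its relative Slc17a1 read 1570, 2222, 2163 and 1903 in kidney, all above 741, 1043, 806 and 958 in liver.

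Salt and acid carriers were called higher in kidney and hypothalamus alike, 7 of 28 each, with 2 lower in each. Slc12a1, the sodium-potassium-chloride carrier of the thick ascending limb and target of loop diuretics, read 1910, 1875, 3189 and 1807 in kidney, against 4.5 to 101 (median 32.5). Slc12a3, the thiazide-sensitive carrier of the distal tubule, read 1450, 1319, 1294 and 1799, against 11.1 to 157 (median 34.3). The highest value in another tissue was 100.8 for Slc12a1 and 156.6 for Slc12a3. Slc9a3, the apical sodium-proton exchanger, ran from 1169 to 1428 in kidney, against 72.9 to 317 (median 119.5). Slc4a4, a sodium-bicarbonate carrier, was called in both, with 4769, 3940, 5985 and 5369 in kidney and 3113, 3764, 2929 and 2194 in hypothalamus, and the kidney arrays were all above.

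Among sugar carriers 3 of 12 were higher in kidney. Slc5a2, the sodium-glucose carrier that gliflozin drugs block, read 1411, 1174, 1066 and 1656 in kidney and stayed under 100 on the other 20 arrays, at least 13.1-fold higher. Slc2a5, the fructose carrier, ran from 749 to 1004, against 116 to 534 (median 242). Slc37a4, which brings glucose-6-phosphate into the endoplasmic reticulum for glucose release, read 3547, 3086, 2204 and 3303 in kidney and 2458, 2008, 2038 and 1984 in liver, which overlapped. The peptide carriers Slc15a1 (at least 3.56-fold higher) and Slc15a2 (1377, 1646, 2066 and 1474, against 25.4 to 607 (median 187)) were the 2 of 4 called in kidney. Slc6a8, the creatine carrier, ran from 4101 to 5225 in kidney, against 88.6 to 1915 (median 520.2).

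Mitochondrial carriers were called higher in kidney for 10 of 29 and lower for 0, and lower in spleen lymphocyte for 10 and higher for 1. Slc25a10, the dicarboxylate carrier, read 2689, 2393, 993 and 2219 in kidney, and its 18-month array was less than the other 3. Slc25a15, which carries ornithine for the urea cycle, read 3576, 3593, 2574 and 3107 in liver, with kidney next at 1205, 1624, 1008 and 1032. Slc25a13, the aspartate-glutamate carrier, read 3829, 3496, 2817 and 2900 in liver and 1700, 1613, 2490 and 1723 in kidney. Slc25a4, the ADP/ATP carrier of muscle and brain, was lowest in liver (266, 239, 259.5 and 226) and highest in hypothalamus (7559, 8506, 9974 and 6113), where 1 array fell inside the pituitary range. Its paralogue Slc25a5 was at 3640 or more on every array, and kidney was higher at 12286 to 14180, against 3640 to 7646 (median 6497).

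With signals under 100 raised to 100, the largest difference of any member was in liver and belonged to a fatty acid protein. This rank depends on the floor. Slc27a5 (chr1:82688742-82699335), the enzyme that joins bile acids to coenzyme A, read 8144, 12613, 10199 and 7916 in liver, against 21.4 to 119 (median 84.7) in the other tissues. All but 2 of the 20 other values were under 100 and were raised to it, so its difference of 6.56 on the log2 scale is set by the floor and no p is given for it. Slc27a2, which activates very long-chain fatty acids, read 12939, 13316, 14497 and 14414 in liver and 5921, 7194, 8440 and 5423 in kidney, and was called in both. Slc26a1, a sulfate exchanger, was likewise high in liver (4107, 4400, 4373 and 3566) and kidney (3238, 2592, 1774 and 2240). The liver genes Slc27a5, Slc10a1, Slc38a4 and Slco1b2 read 85.4, 75.9, 87.9 and 128.8 in hypothalamus at 10 months, the array with the Alb signal. The part of liver RNA in these values was not tested.

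Metal ion carriers were led by liver, where 6 of 22 were higher and 2 lower. Slc41a2, a magnesium carrier, read 3676, 3581, 3360 and 2925 in liver, against 131 to 583 (median 264). Slc39a14, a zinc and manganese importer, read 1462, 1651, 1681 and 2361, against 127 to 1316 (median 439.9). Slc31a1, the copper importer, was high in liver (2631, 2223, 2017 and 2131) and kidney (2250, 1452, 1967 and 1572). In hypothalamus Slc39a10, a zinc importer, ran from 678 to 1503, against 51.4 to 487 (median 239).

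In hypothalamus the members with the largest differences, Slc17a6, Slc12a5 and Slc32a1, are genes of neurons in textbook accounts. Bulk RNA does not place their signal in a cell type. Slc17a6 (chr1:110348447-110388499), which loads glutamate into synaptic vesicles, read 3763, 3872, 2860 and 7484 in hypothalamus, against 25.8 to 709 (median 150.4) elsewhere, a difference of 4.52 ± 0.26 (SE; adjusted p = 3.13e-11, limma). The 24-month array was the highest and the 18-month one the lowest. Slc32a1, which loads GABA and glycine, read 2064, 1192, 1141 and 1086, against 26.7 to 185 (median 73.4) (3.65 ± 0.15). Slc17a7, the vesicle glutamate carrier of cortex, was not called there and lay between 132.7 and 229.3. Slc12a5, the chloride exporter that makes GABA inhibitory, read 6153, 6417, 5737 and 5222, against 104 to 781 (median 281) (4.26 ± 0.20). Slc12a2, which imports chloride, read 2023, 2927, 2355 and 2997, also above all other arrays.

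Other hypothalamus members included Slc25a18 and Slco1c1, genes of glia and of the vessel wall in textbook accounts. Slc25a18, a mitochondrial glutamate carrier, read 1093, 966, 1243 and 726 and stayed under 100 on the other 20 arrays, at least 9.88-fold higher. Slco1c1, the thyroxine carrier of the blood-brain barrier, read 863, 1219, 783 and 536, against 5.9 to 177 (median 67.5). Slc22a17, a lipocalin receptor, ran from 5298 to 6744 in hypothalamus, against 202 to 2368 (median 580.4), and was the 5th of the pituitary calls as well (1982, 2244, 2368 and 2133). Of the 34 members called higher in hypothalamus, 15 lay above all other arrays in all 4.

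Pituitary shared its leading members with other tissues. Slc7a8, a carrier of neutral amino acids and thyroid hormone, read 924, 914, 594 and 1048 in pituitary and 825, 1044, 753 and 1153 in kidney. The 2 sets overlapped. Slc35f5 (769.8, 382, 468 and 426), Slc37a1 (629.9, 830.0, 815 and 644) and Slc39a11 were the 3 of its 13 with all arrays above the other 20. Slc35f5 had its highest array at 4 months. Slc3a1 read 2306, 4133, 5303 and 2587, with a difference of 1.63 ± 0.57 (SE; adjusted p = 0.0222). With the 4-, 10- or 18-month arrays of all tissues left out, that p was 0.0552, 0.08 or 0.0714, above 0.05 each time.

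In bone the lactate carrier Slc16a1 read 1633, 3071, 2822 and 3068, and the glucose carrier Slc2a3 414, 934, 964 and 1135. Slc22a4, the carrier of ergothioneine, read 178, 594, 621 and 602. All 3 were lowest at 4 months, and these 4-month values lay inside the range of the other tissues. Slc16a10, which carries aromatic amino acids, read 419, 705, 435 and 654, against 16.5 to 309.5 (median 94.3). Bone holds marrow as well as mineralising cells: the 5 measured erythroid genes summed to 39703 to 66779 in bone, against 3238 to 32252 in the other tissues, and the 7 muscle genes to 2395 to 7774, against 306.3 to 1220. Their part in these levels was not tested.

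In spleen lymphocyte the sodium-bicarbonate carrier Slc4a7 read 3107, 2643, 2456 and 2865, against 228 to 1071 (median 569) in the other tissues (2.47 ± 0.16, SE). Slc16a6, a monocarboxylate family member, read 1758, 1269, 975 and 1081, and its other probe set was also highest there. Slc25a36, a mitochondrial nucleotide carrier, read 5293, 4259, 4133 and 4466. Slc44a2, a choline carrier, read 2678, 2425, 2324 and 2582, with bone next at 2022, 1590, 1974 and 1672. Slc15a3, a lysosomal histidine and peptide carrier of immune cells, read 516, 572, 579 and 531, also with bone next at 316, 393, 445 and 412.

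Genes that work with the transporters were read from 3 lists. Of all genes 10.5% were higher in kidney and 8.7% lower, and in liver 9.96% were higher and 14.7% lower. Of the sodium pump, only genes of beta subunits and Fxyd regulators were tested, and no catalytic alpha subunit was. The pump makes the gradient that sodium-coupled carriers use: 3 of the 6 tested were higher in kidney and 0 lower. Its beta subunit Atp1b1 read 12442, 11676, 12619 and 11245 in kidney and 7077, 8497, 6593 and 6598 in hypothalamus, and its kidney regulator Fxyd2 11603, 10992, 7982 and 11328 in kidney with a difference of 6.06 ± 0.12 (SE; adjusted p = 2e-18). Of 15 tested scaffolds, kinases and transcription factors, 7 were higher in kidney and 0 lower. Pdzk1, the scaffold that anchors apical carriers, read 5839, 7034, 4750 and 5944 in kidney, against 786, 724, 820.1 and 616 in liver. Its kidney difference of 5.29 is set in part by the floor, as all hypothalamus, pituitary and bone values lay under 100. Of 15 tested ABC efflux transporters, 5 were higher in liver and 3 lower, and 1 higher and 3 lower in kidney. The bile salt pump Abcb11 read 2073, 2343, 1868 and 2006 in liver (4.27 ± 0.10, SE). No gene of the 3 lists was called between late and early ages in any tissue.

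The next question was whether members moved with age in all tissues together. Each age contrast was fitted over 6 tissues with the tissue as a term (8453 genes at 100 on at least 12 arrays, 182 of them members). In limma 0 members passed an adjusted p of 0.05 in any of the 5 contrasts, and 0% of all genes did. At an unadjusted p under 0.05 there were 10 members for 10 minus 4 months (5.49%, against 5.28% of all genes), 3 for 18 minus 10 (1.65%, against 2.64%), 6 for 24 minus 18 (3.3%, against 2.91%), 14 for 24 minus 4 (7.69%, against 6.27%) and 9 for late (18 and 24 months) minus early (4 and 10 months; 4.95%, against 5.84%). Lowest was Slc39a7, which releases zinc from the endoplasmic reticulum, with a 10 minus 4 difference of -0.83 ± 0.18 (SE; adjusted p = 0.227, limma), which was lower in 6 of 6 tissues. Slc41a2 had a 24 minus 4 difference of -0.53 ± 0.14 (adjusted p = 0.472), lower in 6 of 6 tissues. For late minus early the 5 lowest p-values were those of Slco1a5 (0.43 ± 0.14, adjusted p = 0.749, higher in 6 of 6), Slc25a33 (-0.36 ± 0.14, 0.784), Slc27a2 (0.50 ± 0.20, 0.812), Slc30a1 (0.25 ± 0.10, 0.812) and Slc30a7 (-0.29 ± 0.12, 0.821).

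Within a tissue the 2 late arrays were set against the 2 early ones, with the spread taken over all 6 tissues. In hypothalamus 4 of 187 members were higher late (2.14%, against 1.8% of all genes) and 0 lower (0.514% of all genes). In spleen lymphocyte 2 of 171 were higher (1.17%, against 0.337%) and 0 lower (0.0602% of all genes), and in liver 1 of 183 was higher (0.546%, against 0.119%) and 0 lower (0.0356% of all genes). In bone 0 of 177 were called, against 0.211% of all genes higher and 0.527% lower, and in pituitary and kidney 0 members and 0% of all genes were. At an unadjusted p under 0.05 limma gave 38 members in bone (21.5%, against 16.3% of all genes), 3 in pituitary (1.64%, against 2.6%), 18 in kidney (9%, against 5.97%), 24 in hypothalamus (12.8%, against 12.9%), 25 in liver (13.7%, against 8.47%) and 17 in spleen lymphocyte (9.94%, against 8.33%). A shared spread understates the error of a gene that sits at the floor in the other tissues. With only the 4 arrays of each tissue in the fit, a choice made after seeing the data, 3 members were called in hypothalamus (0.899% of all genes higher and 0.0117% lower) and 0 elsewhere.

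The Actb 3′ to 5′ ratio moved with the contrast in hypothalamus, at 1.89, 3.09, 1.21 and 1.1 on the log2 scale at 4, 10, 18 and 24 months, lower on both late arrays than on both early ones, and its part in the 4 hypothalamus calls was not tested. Without the 10-month array, which had the highest ratio, late minus early in hypothalamus was 4.54 for Slc3a1 (adjusted p = 5.09e-06, limma), 2.23 for Slc24a2 (0.000296), 1.66 for Slc2a13 (0.0288) and 1.14 for Slc16a7 (0.0724). The first 3 stayed under an adjusted p of 0.05. The 1 early array left is assumed to vary like those of the other tissues, here and in the like fits for spleen lymphocyte and liver.

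Slc3a1 had the largest of these differences. In hypothalamus it read 484, 391, 9086 and 13948 at 4, 10, 18 and 24 months. Both late arrays lay far above both early ones, and the SD of 2.72 on the log2 scale was the widest of the 7520 genes at 100 on all 4 hypothalamus arrays. Late minus early was 4.69 ± 0.33 (SE; adjusted p = 1.23e-07, limma; 0.00322 from the 4 arrays alone). In pituitary it read 2306, 4133, 5303 and 2587, in kidney 21474, 22573, 20690 and 20694, and in the other 3 tissues between 205.1 and 663.9. The difference between tissues was tested as an interaction: 1 of 182 members passed (0.549%, against 0.781% of all genes), and it was Slc3a1 (moderated F = 32.49, adjusted p = 1.98e-05, limma). Slc7a9, the partner subunit, read 42.4, 54.4, 13.6 and 55.8 in hypothalamus.

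Values that could bear on the Slc3a1 course were read beside it. The 9 kidney markers summed to 3318, 3763, 3171 and 3595 in hypothalamus across the 4 ages, and the 8 anterior pituitary markers to 3366, 4136, 5361 and 5963. Most of the kidney sum there was Calb1 (2835, 3294, 2513 and 2973), while Kap read 6.9 to 26.7. Most of the pituitary sum there was Cga (2322, 2855, 4080 and 4647). Gh1 read 146.5, 89.7, 74.8 and 49.4, and Tshb 369.7, 795.3, 680.6 and 530.7, so neither sum stands for its whole list. In pituitary itself the 8 pituitary markers summed to 134602 to 160372. Both late hypothalamus arrays lay above every pituitary array for Slc3a1, which read 5303 at most there. Slc3a1 overlaps its neighbour Prepl (chr6:15333107-15362825, the other strand) by 1789 bases in GRCr8. Prepl read 353.1, 414.4, 392.1 and 465.2 in hypothalamus at the same ages. Only 1 probe set measured each gene. The part of kidney cells, pituitary cells or Prepl in the Slc3a1 course was not tested.

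Slc24a2, a sodium-calcium exchanger of neurons that moves potassium, read 135, 151, 570.4 and 708 in hypothalamus, late minus early 2.15 ± 0.24 (SE; adjusted p = 2.02e-05, limma; 0.0175 alone). Both late arrays were above both early ones, and in pituitary it read 487, 258, 311 and 306. Slc2a13, a proton and myo-inositol carrier, read 159, 147, 539 and 473 (1.72 ± 0.30; adjusted p = 0.00211, and 0.0294 alone). Its other probe set read 1983, 2587, 1466 and 2009 and showed no rise, and the mean of the 2 gave 0.66 with an adjusted p of 0.292. Slc16a7, a carrier of pyruvate, read 75.6, 122, 222 and 219.5, but the call was lost in the 4 arrays alone (adjusted p = 0.186) and without the 10-month hypothalamus array. The Actb ratio differs between late and early arrays for these 3 genes as for Slc3a1.

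In spleen lymphocyte Slc27a2 read 335, 604, 1470 and 2721 at 4, 10, 18 and 24 months, against 174.5 to 393.8 in hypothalamus, pituitary and bone. Each later array was above the one before. Late minus early was 2.15 ± 0.32 (SE; adjusted p = 0.00291, limma), and with the 4 arrays alone the adjusted p was 0.374. The 10 hepatocyte genes summed to 1230, 1079, 1090 and 1148 in the same arrays, and the 9 kidney genes to 394.8, 806, 706.7 and 627.7. Slc28a2, a purine nucleoside carrier, read 116, 129, 266 and 270.4 (1.13 ± 0.24; adjusted p = 0.0357, and 0.374 alone). The Actb 3′ to 5′ ratio fell with age in these arrays, at 3.74, 2.63, 2.33 and 1.88 on the log2 scale, and its part was not tested. Without the 4-month array, a choice made after seeing the data, late minus early was 1.73 for Slc27a2 (adjusted p = 0.0949, limma) and 1.06 for Slc28a2 (0.296), and neither was called. In liver Slc35a4, a Golgi family member, read 104, 46.2, 249 and 267 (1.34 ± 0.25; adjusted p = 0.0346, and 0.656 alone), with 1 early array under the floor. Without the 10-month liver array it was 1.32 with an adjusted p of 0.0815 (limma). The Actb ratio in liver was 2.85, 2.74, 2.61 and 1.43 at the 4 ages.

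**Figure D4:**
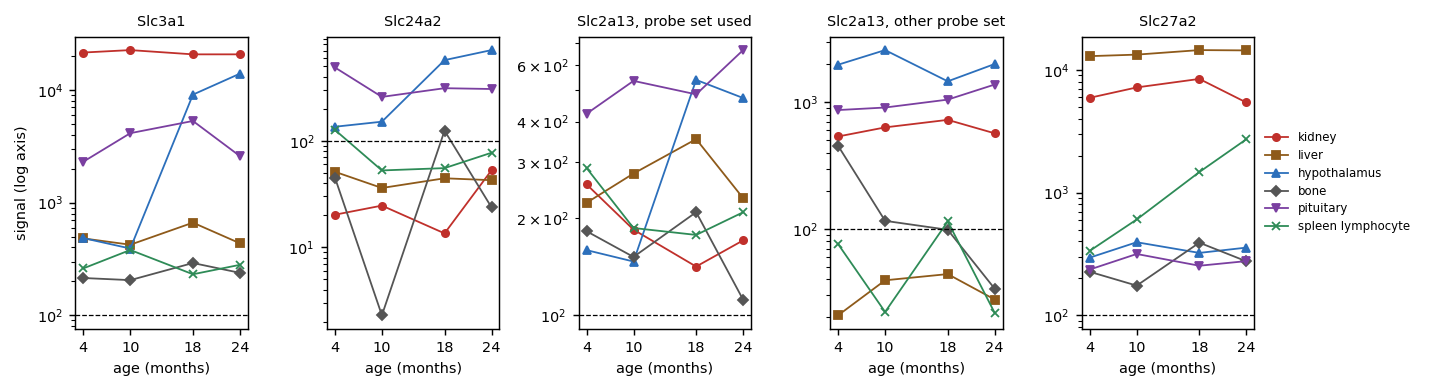
Signal (log axis, a different range in each panel) against age in months for Slc3a1, Slc24a2, both probe sets of Slc2a13 and Slc27a2, 1 array per point, 1 line per tissue, with the floor of 100 dashed. Slc3a1 climbs to 13948 in hypothalamus, Slc27a2 to 2721 in spleen lymphocyte, and only the 1st of the Slc2a13 probe sets steps up in hypothalamus.

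The last question was how many members differed 2-fold between neighbouring ages within a tissue, both arrays at 100 or more. Over 18 pairs and 2984 comparisons 58 were higher at the later age (1.94%, against 1.97% of all genes) and 76 lower (2.55%, against 1.9%). The balance turned with the arrays and the floor: 23 were higher and 20 lower without the pairs that use the 4 picked arrays, 15 and 14 without the 4-month spleen lymphocyte and 10-month liver arrays too, and 135 and 125 with a floor of 50. The choices of arrays here were made after seeing the data. There were 85 members with such a call and 146 with none, counts that were not made over all genes. Within a tissue the SD of log2 signal over the 4 ages had a median of 0.25 in pituitary (0.20 over all genes) to 0.36 in bone (0.30 over all genes) among members at 100 on all 4 arrays. With no replicate, none of these calls has a test.

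Bone held 53 of the 134 calls. At 10 months, against 4 months, 2 of 155 members were higher (1.29%, against 3.86% of all genes) and 16 lower (10.3%, against 5.85%). The 16 held 6 of the 22 metal ion carriers compared, with a class median of -0.48, and 4 of the 13 nucleotide sugar and other intracellular carriers. Slc30a4, a zinc exporter, read 245 at 10 months, against 944 at 4 months. Slc39a7 read 369 against 1290, Slc39a14 read 344 against 1060, and Slc8a3, a sodium-calcium exchanger, 234 against 717. Slc29a1, a nucleoside carrier, read 547.3 against 1571, and Slc4a2, the chloride-bicarbonate exchanger that osteoclasts need, 570.0 against 1492. Higher were Slc22a4 (594 against 178) and Slc2a3 (934 against 414). Over the same step the osteoblast sum was 47786 against 75747 and the muscle sum 7733 against 2395, and the part of these cells was not tested.

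At 18 months, against 10 months, 16 of 156 bone members were higher (10.3%, against 6.97% of all genes) and 1 lower (0.641%, against 1.82%). At 24 months, against 18 months, 2 were higher (1.28%, against 1.85%) and 16 lower (10.3%, against 5.78%). Both steps use the 18-month array with the raised low end. Among them Slc17a1 read 98.1, 132, 403 and 136, Slc26a1 173, 106, 359 and 186, Slc23a1 86.2, 115, 295 and 122 and Slc6a7 195, 274, 608 and 204 across the 4 ages, high only at 18 months. Setting 24 directly against 10 months, a choice made after seeing the data, gave 1 of 161 members higher (0.621%, against 0.61% of all genes) and 1 lower (0.621%, against 0.712%). Slc39a14 read 1060, 344, 127 and 482 and went the other way, lowest at 18 months.

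In kidney, at 18 months, against 10 months, 2 of 182 were higher (1.1%, against 1.81% of all genes) and 11 lower (6.04%, against 3.41%). At 24 months, against 18 months, 7 of 185 were higher (3.78%, against 2.51%) and 2 lower (1.08%, against 0.832%). Between 4 and 10 months it was 1 higher (0.535%, against 0.613%) and 0 lower (0.6% of all genes) of 187. The low values sat on the 18-month array, which both later steps share. Slc38a3 read 915, 718, 283 and 558 across the 4 ages, Slco3a1 259.9, 344, 138 and 320.1 and Slc4a2 586, 622, 260.0 and 652. Slc30a4 was the reverse with 258, 257, 639 and 219.9.

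In liver the 10-month array was low for Slco1b2 (7044, 3033, 6948 and 4007), yet its other probe set read 6778, 8129, 6833 and 5821 and was highest at that age. At 10 months, against 4 months, liver had 2 higher (1.24%, against 1.56% of all genes) and 5 lower (3.11%, against 1.43%) of 161. At 18 months, against 10 months, it had 5 higher (3.01%, against 2%) and 0 lower (0.935% of all genes), and at 24 months, against 18 months, 2 higher (1.16%, against 1.83%) and 3 lower (1.74%, against 1.53%). Slc34a2, a phosphate carrier, read 368, 796, 1184 and 836, lowest at 4 months. Slc46a1, the proton-coupled folate carrier, read 502, 451, 357 and 163, each array under the one before. Slc25a30 read 849.7, 1440, 2773 and 1268 with its peak at 18 months.

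In hypothalamus, at 18 months, against 10 months, 5 of 168 were higher (2.98%, against 3%) and 4 lower (2.38%, against 1.31%), led by Slc3a1 and Slc24a2. At 10 months, against 4 months, 1 was higher (0.606%, against 0.896%) and 6 lower (3.64%, against 2.48%), and at 24 months, against 18 months, 4 were higher (2.21%, against 1.93%) and 2 lower (1.1%, against 1.89%). Slc17a6 read 7484 at 24 months, against 2860 at 18 months. Slc5a7, the choline carrier of cholinergic neurons, read 139, 308, 150.4 and 109.6, highest on the 10-month array. Slc25a20, the carnitine carrier, read 294, 286, 456 and 154. Slc6a3, the dopamine carrier, read 357, 352, 154 and 471, but its other probe set lay under 100 at the first 3 ages.

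In pituitary the step to 10 months gave 3 higher (1.84%, against 1.13%) and 3 lower (1.84%, against 1.19%) of 163, the step to 18 months 0 either way (0.842% and 0.507% of all genes), and the step to 24 months 0 higher (0.444% of all genes) and 2 lower (1.16%, against 0.801%). Slc7a12 read 138, 346, 273 and 233 and Slc9a2, a sodium-proton exchanger, 108, 267, 254 and 158, both lowest at 4 months. In spleen lymphocyte the step to 10 months gave 1 higher (0.649%, against 1.99%) and 1 lower (0.649%, against 1.72%), that to 18 months 3 higher (2.01%, against 1.26%) and 2 lower (1.34%, against 1.04%), and that to 24 months 2 higher (1.38%, against 1.04%) and 2 lower (1.38%, against 1.1%). Slc16a3, a lactate exporter, read 274, 184, 414 and 374, Slc38a5 392, 482, 202 and 535 and Slc5a6, the biotin carrier, 423, 247, 198 and 522, the last 2 being lowest at 18 months.

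**Figure D5:**
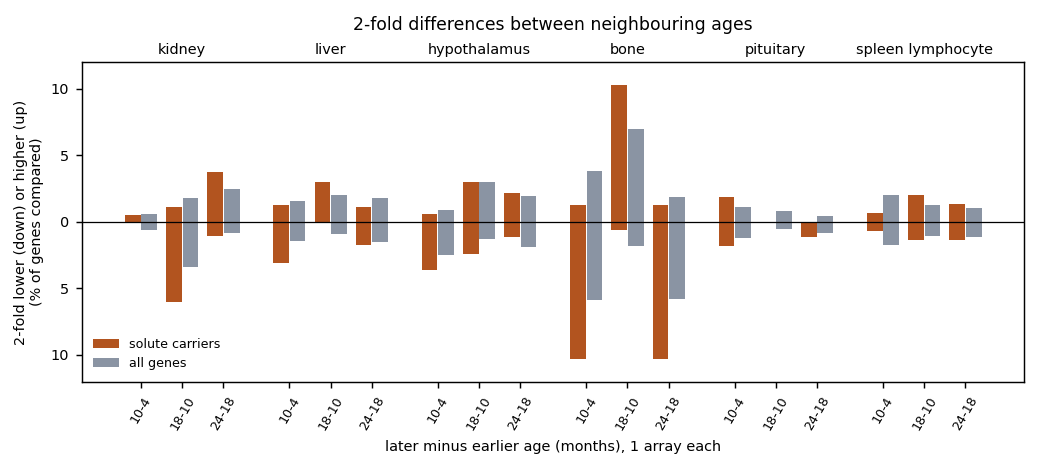
Percent of genes that were 2-fold higher (up) or 2-fold lower (down) at the later of 2 neighbouring ages, in each tissue, for solute carriers and for all genes, 1 array per age. Bone has the longest member bars, 10.3% lower at 10 months, 10.3% higher at 18 months and 10.3% lower at 24 months.

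The members called in at least 4 of the 18 pairs were Slc25a10 (7 calls), Slc4a2 (4) and Slc45a4 (4). Slc25a10 read 295, 108, 243 and 117 in hypothalamus, 2689, 2393, 993 and 2219 in kidney, 630.1, 633, 450.5 and 939.7 in liver and 173, 221, 255 and 125 in spleen lymphocyte. At 18 months it stood low in kidney and liver and high in spleen lymphocyte, while hypothalamus was low at 10 and 24 months. Slc45a4 read 268, 129, 249 and 122 in pituitary and 309.6, 309, 154 and 329 in kidney. Neighbouring steps of a tissue share an array, so a low array counts in 2 calls.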

How the data were processed

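The authors deposited 1 intensity per probe set and array, a MAS5.0 signal scaled to a target of 500 on each array, for 15923 probe sets. Each array held RNA pooled from 10 rats, and the depth of an array is limited by its number only: 1 per tissue and age. Symbols were those of the array annotation, and a probe set with several symbols was left out. Each gene was read by the probe set at 100 or more on most arrays, with the higher mean deciding ties. Signals under 100 were raised to 100 and taken to log2. Models across all genes were fitted in limma 3.58.1 (R 4.3.3) with Benjamini-Hochberg adjustment, and were tested on simulated data. A 2-fold call needed 100 on both arrays. The members and gene lists were chosen with earlier results of these data known. Genes were named by rank of difference or p within a tissue, by number of 2-fold calls, by opposite calls, by disagreeing probe sets, by range within a class and from a textbook set. Slc1a1, Slc6a18, Slc7a6, Slc8a3, Slc9a3, Slc10a2, Slc22a24, Slc25a5, Slc39a11, Slco1a3 and Slco1c1 were added after their values were seen. Alternatives changed the floor, centring, pseudocount, fold, choice of probe set, and left out ages, tissues or arrays. Promoters and coordinates are from RefSeq, build GRCr8.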

Additional observations from a re-analysis of the deposited data

Results flagged for a closer look

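The course of Slc3a1 over the ages differed between tissues by a test of the difference itself (moderated F = 32.49, limma), with 484, 391, 9086 and 13948 in hypothalamus at 4, 10, 18 and 24 months and 20690 to 22573 in kidney.

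The other differences rest on 1 array per age and were not tested. Each was a 2-fold change one way in one tissue and the opposite way in another over the same step. At 10 months, against 4 months, the nucleoside carrier Slc29a1 differed by -1.52 in bone and 1.03 in pituitary, on the log2 scale. At 18 months, against 10 months, the chloride carrier Slc12a5 differed by -1.13 in kidney (139 against 304) and 1.18 in liver (235 against 104, the latter close to the floor). Over that step the dicarboxylate carrier Slc25a10 differed by 1.17 in hypothalamus and -1.27 in kidney, and Slc6a7, the proline carrier of neurons, by 1.15 in bone and -1.03 in spleen lymphocyte. At 24 months, against 18 months, Slc25a10 differed by -1.06 in hypothalamus, 1.16 in kidney, 1.06 in liver and -1.02 in spleen lymphocyte. Over that step Slc45a4 differed by 1.1 in kidney and -1.03 in pituitary. Neighbouring steps share an array. All the kidney differences here use the picked 18-month array, and those in bone the picked 4- or 18-month array. In hypothalamus Slc25a10 was close to the floor at 10 and 24 months, with 108 and 117. The share of all genes with opposite calls was not counted.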

How the results depend on the processing

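Members called higher in bone were 11 instead of 18 with each array centred, and in pituitary 8 instead of 13 with a floor of 200. The 58 higher and 76 lower 2-fold calls were 289 and 316 at 1.5-fold, 8 and 5 at 3-fold, 21 and 37 with a floor of 200, 135 and 125 with a floor of 50, 33 and 38 with a pseudocount, 23 and 20 without the pairs that use the 4 picked arrays, and 15 and 14 without the 4-month spleen lymphocyte and 10-month liver arrays too, the last 2 being choices made after seeing the data. The 7 within-tissue calls were 11 with a floor of 200 and 3 from a tissue's own 4 arrays. The 1 member whose course differed between tissues became 2 with centring, a floor of 200, a floor of 50 or a pseudocount. Slc17a1 in bone at 24 months reversed to 0.05 against 10 months in place of 18 months (-1.56), as the 18-month array was left out. Slc6a3 in hypothalamus at 18 months reversed to 0.63 as the mean of its probe sets (-1.20), and the cause was not tested. The labels give no replicate numbers, so no pairing beyond that by tissue and by age could be made. The age fit already had tissue as a block, and the tissue fit age.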

Other observations

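Of the 231 members, 41 had more than 1 probe set, with 52 further probe sets between them. Across the 24 arrays the log2 signals of 21 of these correlated with the kept probe set at 0.5 or more, 28 lay under 0.5 and 3 gave no correlation. The tissue of the highest level was the same for 23 of the 52. These are descriptions over arrays that share rats and scaling. A second probe set of Slc4a4, a sodium-bicarbonate carrier, read 32.7, 23.8, 855.4 and 344.3 in hypothalamus at 4, 10, 18 and 24 months, high at the same ages as Slc3a1, while the kept one read 3113, 3764, 2929 and 2194. A second probe set of Slc1a1, the neuronal glutamate carrier, read 185.3, 167.7, 390.7 and 415.1 in hypothalamus, against 1048, 851.3, 936.3 and 814.4 for the kept one. Both pairs were noticed after the values were seen and had no test.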
